A study of Mus musculus with 29 samples.

Results

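The transcripts of 10 glycolytic enzymes were followed by their 3′ ends in C2C12 cells, a mouse myoblast line that fuses into muscle cells when serum is lowered. The genes were Hk1, Hk2, Aldoa, Tpi1, Gapdh, Pgk1, Pgam1, Eno1, Pkm2 and Ldha, taken by an exact match of the gene symbol among 17005 symbols in the deposited table of poly(A) sites. They held 57 sites with at least 1 read. The assay, 3'READS+, sequences the stretch next to the poly(A) tail, so that a transcript gives about the same number of reads whatever its length.

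Glycolysis turns glucose into pyruvate in the cytosol, and lactate dehydrogenase turns pyruvate into lactate. Hexokinases phosphorylate glucose at the entry, aldolase splits the sugar, triosephosphate isomerase, glyceraldehyde-3-phosphate dehydrogenase, phosphoglycerate kinase, phosphoglycerate mutase and enolase work on the products, and pyruvate kinase makes pyruvate. The enzymes are soluble proteins made mostly on free ribosomes, although hexokinases 1 and 2 can bind the outer mitochondrial membrane. Muscle expresses its own isoenzymes for several of these steps.

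Cells were either differentiating, which for the polysome libraries meant medium with horse serum, or proliferating, in medium with fetal bovine serum. The labels of the differentiating monosome libraries list the fetal bovine serum medium. Cells of both states were split into a membrane and a cytosol fraction, each run on a gradient into polysomes and monosomes, with 2 libraries for each of the 8 combinations. A further 8 libraries came from proliferating cells, with 1 membrane and 1 cytosol library each of untreated cells and of cells given puromycin, which ends translation by releasing the nascent chain, at 100 µg/ml for 0, 30 or 60 min. Of the whole fractions of proliferating cells, 1 membrane and 1 cytosol 3′ end library were made, and 3 RNA-seq libraries covered membrane, insoluble and cytosol fractions. All came from 1 cell line, and nothing in the labels says that the replicates were separate cultures, so p-values measure the spread between these libraries, which may be technical.

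The gradient libraries held 2964852 to 7351349 reads in differentiating cells and 3839710 to 8237846 in proliferating cells, and the puromycin libraries 5506600 to 11631401. Of 9 muscle markers all but Myf5 had a higher mean level in differentiating cells in each gradient part, monosomes included. Myog had 69.8 to 506 counts per 1000000 reads (CPM, reads scaled to a common library total) in the 8 differentiating gradient libraries. In the 8 proliferating ones Myog had 0.187 to 3.49 CPM. Myf5 went the other way, with monosome means of 12.4 CPM in membrane and 3.93 CPM in cytosol of differentiating cells. In proliferating cells these means were 24.5 and 12.3 CPM. The summed level of 6 proliferation markers was 91.1 to 326 CPM in differentiating and 532 to 1526 CPM in proliferating libraries. Leukocyte and endothelial markers each summed to at most 1.58 CPM in any gradient library, while the epithelial list reached 29.7 CPM, nearly all of it Krt14. The 6 mRNAs chosen as markers of the endoplasmic reticulum (ER) were all higher in membrane than in cytosol in both states. In bulk libraries such as these, fewer cells of a type and less RNA per cell cannot be told apart.

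The members differed by orders of magnitude in what the table counted. Over the 26 3′ end libraries, Aldoa had 3444218 reads at 1 site, position 133938748 on the minus strand of chromosome 7 (mm9). Ldha had 369204 reads at position 54110997 on the plus strand of chromosome 7, also its only site. Tpi1 had 265631 reads, 99.9% of them at position 124760733 on the minus strand of chromosome 6. Pkm2, whose current symbol is Pkm, had 145412 reads, nearly all at position 59527177 on the plus strand of chromosome 9. A count of 3′ ends does not tell the muscle and the M2 splice forms of this gene apart. Hk1 had 15345 reads on the minus strand of chromosome 10, with 94.6% at position 61731852 and 5.20% at position 61731600. Pgam1 had 8561 reads, nearly all at position 41993155 on the plus strand of chromosome 19. Hk2 had 1295 reads, 95.9% of them at position 82675019 on the minus strand of chromosome 6.

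The other three members had few reads. Eno1 had 1178 reads, and all of its 23 listed positions were also listed under the symbol Gm5506, so that its reads cannot be given to one of the 2 symbols. Gapdh had 280 reads, of which 15 lay on the strand opposite to the main one, and Pgk1 had 28. Of symbols built on a member's name, Aldoart1 had 959 reads and Ldhal6b 34, and neither shared a position with a member. The filter on low counts left 8 members in the tests, all but Eno1 and Pgk1.

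Because several members are textbook targets of hypoxia-inducible factors, which bind the core ACGTG, the RefSeq promoters (build GRCm38.p6, 250 bases before to 50 after each start) were searched for ACGTG on both strands. All 10 members had at least 1 promoter, and 8 of them, in 9 of 17 promoters, held a match. Of all 27025 symbols with a promoter 5886 did, and of all 32851 promoters 19.6% did. The matches in the 2 Aldoa promoters counted lie at the same position. On the other strand the core reads CACGT, and in CACGTG, the palindrome also known as an E-box, the 2 readings overlap. Matches before the start of Pkm2 (at 75 bases) and of Pgk1, and further ones of Ldha and Hk2, are not shown. Some other stretches before the start of members are shown with the match in capitals, read along the gene's strand.
Ldha, chr7:46845650-46845674, plus strand: gtcgcagcacACGTGgagccactct
Ldha, chr7:46845747-46845771, plus strand: cccagcctacACGTGggttcccgca
Pgam1, chr19:41911747-41911771, plus strand: ctccttgcttACGTGcgctccgtga
Aldoa, chr7:126799366-126799390, minus strand: tggctcgagtCACGTcctagcgggg
Hk2, chr6:82774492-82774516, minus strand: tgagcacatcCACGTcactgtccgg
In both Ldha stretches shown the match is part of CACGTG, 144 and 47 bases before the start. The members with no match in these windows were Eno1 and Tpi1. A match is a description of letters, and binding was not measured here.

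Together the members without Eno1 made up 0.828% to 4.58% of all reads in a library, and Aldoa alone made up 70.3% to 93.5% of the members' reads. Aldoa, the aldolase of muscle and most other tissues, ranged in the differentiating gradient libraries from 14680.0 to 31113 CPM (median 17319) and in the proliferating ones from 6591 to 23616 CPM (median 11619). Ldha, which makes the muscle-type lactate dehydrogenase subunit, ranged from 340.3 to 5402 CPM in differentiating and from 752 to 4283 CPM in proliferating libraries. Tpi1 ranged from 434 to 2273 CPM in differentiating and from 601 to 3482 CPM in proliferating libraries, and Pkm2 from 86.7 to 536 CPM in differentiating and from 171 to 1199 CPM in proliferating libraries. Pgam1 had 11.5 to 86.9 CPM in differentiating and 17.7 to 97.1 CPM in proliferating libraries. For all of these the 2 states overlapped. Gapdh stayed at or under 2.87 CPM in every gradient library, and Pgk1 at or under 1.04 CPM. The low 3′ end counts of Pgk1 and Eno1 cannot be read as low mRNA levels. RNA-seq of proliferating cytosol had 4329 reads of Pgk1 and 8327 of Eno1, where the whole-fraction 3′ end library had 0 and 45. Gapdh was not analysed by RNA-seq.

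**Figure D1:**
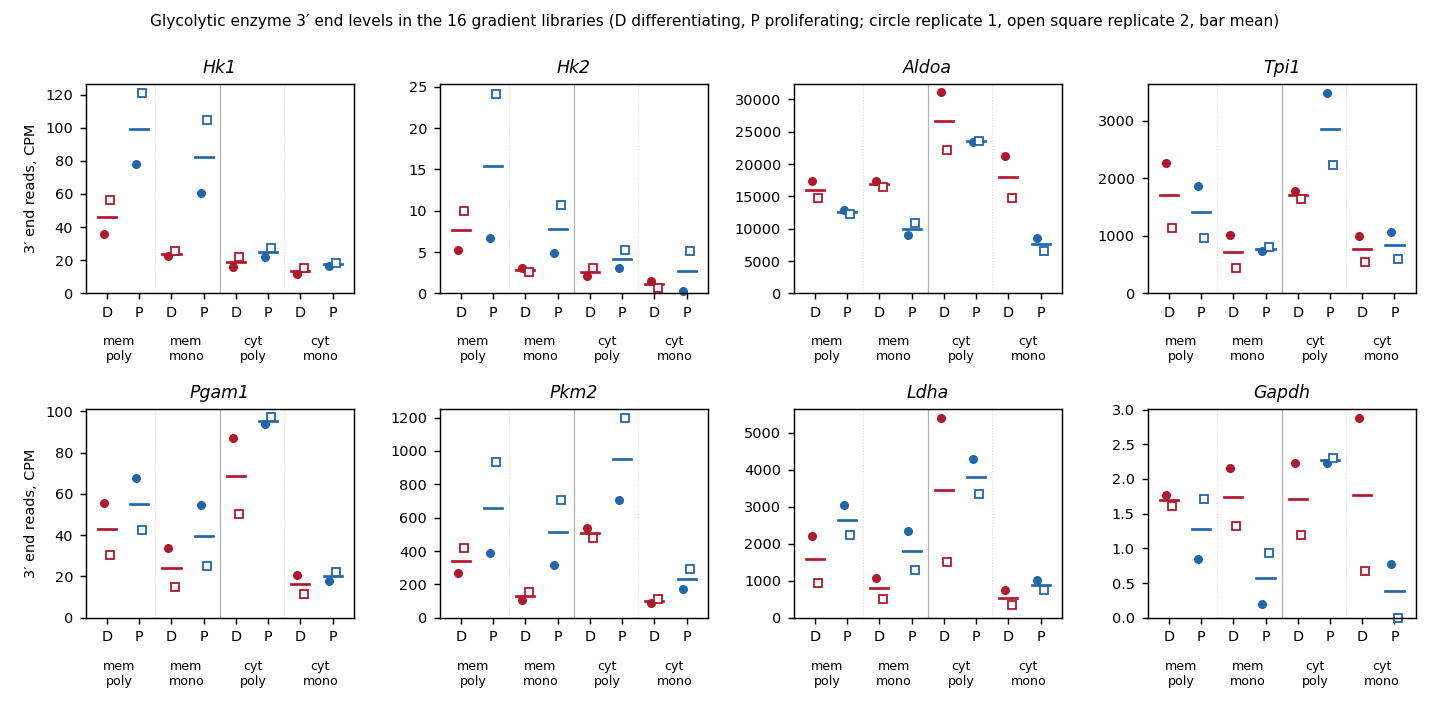
3′ end levels in CPM on linear axes from 0, in each of the 16 gradient libraries, for the 8 members that were tested. Columns are groups by membrane (mem) or cytosol (cyt) and polysome (poly) or monosome (mono); the bar is the mean of 2 replicates. Hk1 in the membrane libraries of proliferating cells sits at 60.5 to 121 CPM, above all its other libraries.

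Hk1 was the member with the clearest difference between fractions, with higher levels in membrane. In differentiating cells Hk1 had 35.6 and 56.5 CPM in membrane polysomes, 22.5 and 25.5 CPM in membrane monosomes, 15.9 and 22.1 CPM in cytosol polysomes, and 12.0 and 15.5 CPM in cytosol monosomes. In proliferating cells Hk1 had 78.1 and 121 CPM in membrane polysomes, 60.5 and 105 CPM in membrane monosomes, 22.0 and 27.4 CPM in cytosol polysomes, and 16.7 and 18.3 CPM in cytosol monosomes. In both states every membrane library of Hk1 lay above every cytosol library. How many of all genes did so was not counted. Hk2, the insulin-responsive hexokinase of muscle, had 2.65 to 9.99 CPM in membrane and 0.675 to 3.06 CPM in cytosol libraries of differentiating cells. It had 4.92 to 24.1 CPM in membrane and 0.260 to 5.26 CPM in cytosol libraries of proliferating cells. The Hk2 ranges overlapped in both states.

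Membrane was then set against cytosol as the mean over polysomes and monosomes. In differentiating cells 0 of 8 members passed edgeR's quasi-likelihood test at an adjusted p of 0.05, where 19.7% of all 11176 genes did. DESeq2 called 1, Aldoa at -0.83, and its share of all genes is not given here. At an unadjusted p under 0.05 edgeR had Aldoa, with a log2 fold change of -0.72 ± 0.25 (SE), and Hk1, with 0.74 ± 0.29. With the replicate number as a block, which pairs the libraries within a state, 4 members passed, where 43.4% of genes did: Hk1 at 0.74 and Hk2 at 1.12 were higher in membrane, and Aldoa at -0.69 and Ldha at -0.52 lower.

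In proliferating cells 1 member passed, Hk1, where 34.8% of genes did. Its log2 fold change was 1.95 ± 0.29, with an adjusted p of 0.00019 by edgeR, and it passed whichever library was left out. Hk2 had 1.55 ± 0.62 (adjusted p = 0.0671) in the same edgeR fit, and 3.17 without replicate 2 of the cytosol monosomes. That left 1 cytosol monosome library, in which Hk2 had 0.260 CPM, against 5.08 CPM in the one left out. With the block 4 members passed, where 56.1% of genes did: Hk1 at 1.89 and Hk2 at 1.53 were higher in membrane, and Tpi1 at -0.74 and Aldoa at -0.46 lower. Ldha, Pkm2 and Pgam1 had log2 fold changes of 0.02, 0.16 and -0.15 without the block and did not pass in either edgeR fit. The median of the 8 members was -0.35 in differentiating cells and -0.07 in proliferating cells, against 0.07 and 0.17 over all genes tested.

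Whether the fraction of a member differed by state was tested as an interaction. Without the block 0 members and 0% of genes passed in edgeR (669 genes at an unadjusted p under 0.05, and 14 genes but 0 members in DESeq2). With the block 4.60% of genes and 1 member passed, Hk1, whose membrane to cytosol ratio was lower in differentiating cells by a log2 difference of -1.15 ± 0.26 (adjusted p = 0.00911 by edgeR). Without the block that difference was -1.21 ± 0.41 (adjusted p = 0.704).

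**Figure D2:**
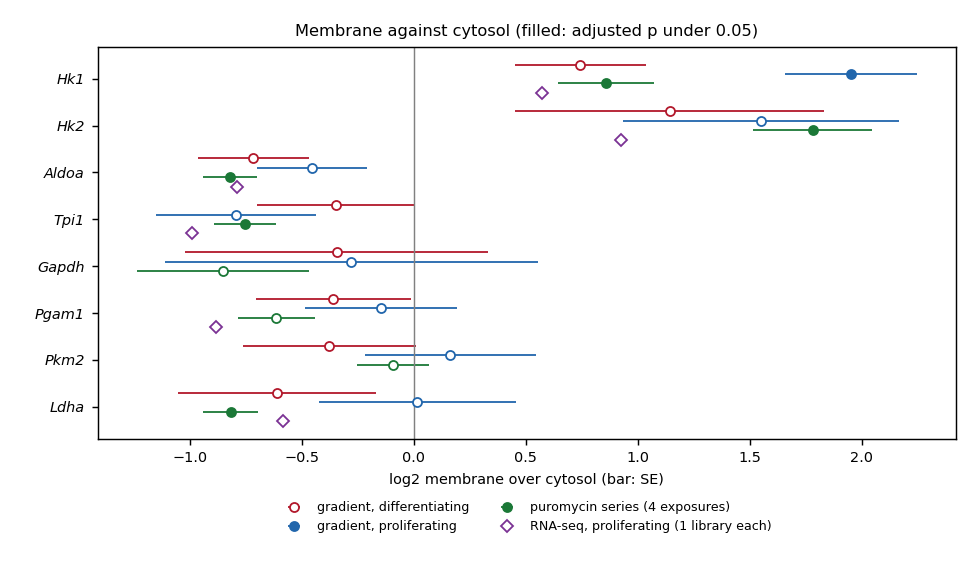
Log2 of membrane over cytosol (x axis) with its SE for the 8 tested members, in the differentiating and proliferating gradient libraries, the puromycin series and, as open diamonds without replicates, RNA-seq; filled circles passed at an adjusted p of 0.05. Hk1 and Hk2 lie to the right of 0 in each data set, and Aldoa and Tpi1 to the left.

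Other genes of the pathway set a scale for these values. Slc2a1 and Slc2a3, which carry glucose, and Slc16a1 and Slc16a3, which carry lactate, are membrane proteins. In differentiating cells 3 of the 4 were higher in membrane (log2 fold changes of 2.29 to 3.16), and Slc2a3 had 2.65 (adjusted p = 0.085 by edgeR). In proliferating cells all 4 were higher (3.27 to 4.07). In the puromycin libraries described next the 4 had 1.41 to 2.11, and 0 passed (adjusted p = 0.0935 to 0.275 by edgeR). Of 10 tested other glycolytic enzymes in proliferating cells, Adpgk, the ADP-dependent glucokinase, which lies at the ER, had 3.77 and Eno2 0.93, while Bpgm at -1.21 and Gpi1 at -0.96 were lower in membrane. Dld, the dihydrolipoamide dehydrogenase subunit of mitochondrial complexes, was higher in membrane in both states, at 1.05 in differentiating and 2.13 in proliferating cells.

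The puromycin series asked whether mRNAs stay with the membrane once nascent chains are released. Hk1 had 193, 186, 240.0 and 213 CPM in membrane and 67.6, 78.0, 146 and 134 CPM in cytosol, in the order untreated, 0, 30 and 60 min. Hk2 had 16.6, 11.5, 13.4 and 16.3 CPM in membrane and 3.09, 2.34, 3.87 and 6.09 CPM in cytosol. Ldha had 1637, 1832, 1934 and 1847 CPM in membrane and 2924, 2679, 2929 and 2779 CPM in cytosol. In each of the 4 exposures both hexokinases were higher in membrane, and Aldoa, Ldha, Tpi1 and Pgam1 were higher in cytosol.

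With each exposure as a pair, 5 members passed, where 25.5% of 9919 genes did: Hk1 at 0.86 ± 0.21 and Hk2 at 1.78 ± 0.27 were higher in membrane, and Aldoa at -0.82 ± 0.12, Ldha at -0.82 ± 0.12 and Tpi1 at -0.76 ± 0.14 lower. Adjusted p-values of these edgeR tests were 0.0164 to 0.0406, and leaving out any 1 of the 4 exposures left 0 members past the threshold, with the same signs and adjusted edgeR p-values of 0.0511 for Ldha without 0 min to 0.161 for Hk1 without 0 min. Those fits had 1 exposure pair fewer, and the share of all genes passing in them is not given here. With all 4 exposures Pgam1, at -0.61, had an adjusted p of 0.0536 by edgeR. The members' median was -0.69, against 0.12 over all genes.

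For the membrane to cytosol ratio per 30 min of puromycin 0 members passed in edgeR or DESeq2, where 0% of genes passed (2535 genes at an unadjusted p under 0.05, and 1192 in DESeq2), and Hk1 had -0.43 ± 0.17 (adjusted p = 0.175). Hk1 passed edgeR without the 30 min exposure (-0.40, adjusted p = 0.0279) and without the 60 min exposure (-0.76, adjusted p = 0.0494). The share of all genes passing in those smaller fits is not given here, so these calls have no background. When the 30 and 60 min libraries were set against the untreated and 0 min ones, 2 members passed, where 39.4% of genes did: Hk1 at -0.77 and Pkm2 at -0.46, both with a lower ratio after exposure. For the level in both fractions per 30 min, 0 members passed in edgeR or DESeq2, where 0.423% of genes did. Pgam1 had -0.37 ± 0.13 (unadjusted p = 0.0232, adjusted p = 0.48 by edgeR), the one member with an unadjusted p under 0.05. Both slopes per 30 min counted untreated cells as 0 min. In cytosol Pgam1 had 104 CPM in untreated cells and 51.8, 51.2 and 46.4 CPM at 0, 30 and 60 min. Most of that drop thus lay between untreated cells and 0 min.

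**Figure D3:**
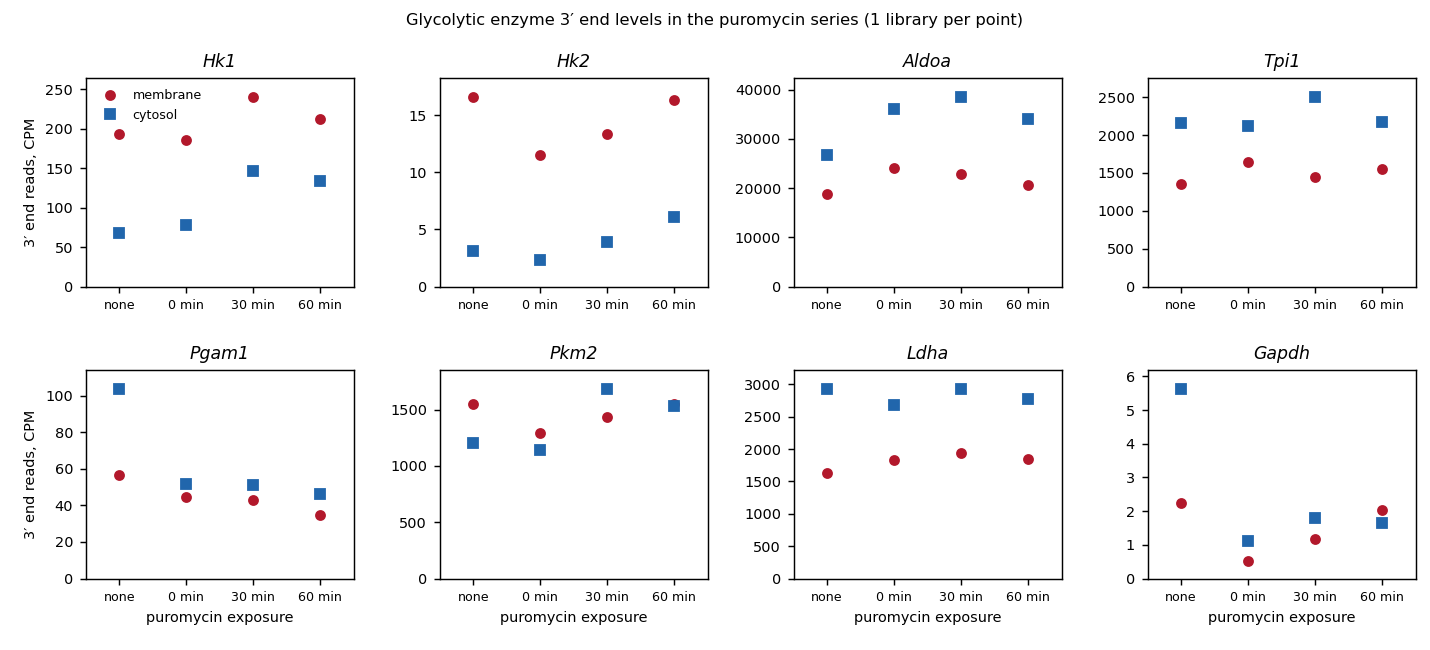
3′ end levels in CPM (linear axes from 0) of the 8 tested members in membrane (circles) and cytosol (squares) over untreated cells and 0, 30 and 60 min of puromycin, with 1 library a point. Ldha sits at 1637 to 1934 CPM in membrane and 2679 to 2929 CPM in cytosol over all 4 exposures.

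In cytosol Ldha, Pkm2 and Pgam1 were higher in polysomes than in monosomes in both states. Ldha had 5402 and 1501 CPM in polysomes and 745 and 340.3 CPM in monosomes of differentiating cells. It had 4283 and 3335 CPM in polysomes and 1012 and 752 CPM in monosomes of proliferating cells. Pkm2 had 536 and 479 CPM in polysomes and 86.7 and 109.6 CPM in monosomes of differentiating cells, and 707 and 1199 CPM in polysomes and 171 and 292 CPM in monosomes of proliferating cells. Pgam1, the mutase of most tissues, had 86.9 and 50.3 CPM in polysomes and 20.9 and 11.5 CPM in monosomes of differentiating cells. It had 93.8 and 97.1 CPM in polysomes and 17.7 and 22.3 CPM in monosomes of proliferating cells. In cytosol every polysome library lay above every monosome library in both states for 6 of the 8 tested members, these 3 and Aldoa, Tpi1 and Hk1, as it did for 26.5% of all genes tested.

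In the cytosol of differentiating cells 3 of 8 members were higher in polysomes and 0 lower, where 23.9% of genes were called (1409 higher and 1264 lower). The 3 were Ldha at 2.45, Pkm2 at 2.07 and Pgam1 at 1.81 (adjusted p = 0.0166 to 0.019 by edgeR). With the block Tpi1 passed too, at 0.94 (46.2% of genes). Aldoa had 0.29 ± 0.35, and its monosome libraries held 21302 and 14680.0 CPM in differentiating cells, against 8633 and 6591 CPM in proliferating cells. Without polysome replicate 1 the log2 fold change of Ldha was 1.05 and that of Pgam1 1.21, and 0 members passed. Without monosome replicate 2, 0 members passed either. The members' median was 0.85, against 0.07 over all genes.

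In the cytosol of proliferating cells 5 of 8 members were higher in polysomes and 0 lower, where 24.3% of genes were called (1283 higher and 1431 lower). Log2 fold changes were 1.55 for Aldoa, 1.69 for Tpi1, 2.18 for Pgam1, 1.98 for Pkm2 and 2.03 for Ldha, with adjusted p-values of 0.00731 to 0.0357 by edgeR. With the block Gapdh joined them (48.0% of genes), from 13 and 14 reads in the polysome libraries and 3 and 0 in the monosome libraries. Calls rested on all 4 libraries: 1 to 5 members passed when 1 of the 16 was left out, fewest without monosome replicate 2, where Pgam1 alone remained. Hk1 had 0.43 and Hk2 0.56, and neither passed. The members' median was 1.83, against -0.02 over all genes. Between the states, the polysome to monosome ratio in cytosol differed for 0 members and 0% of genes in edgeR (367 genes at an unadjusted p under 0.05, and 0 members in DESeq2), and Aldoa had -1.26 ± 0.49.

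On membranes 0 members passed without the block, where 3.95% of genes were called in differentiating and 0.796% in proliferating cells, and DESeq2 called 0 as well. Unadjusted edgeR p-values were under 0.05 for Hk1, Pkm2 and Tpi1 in differentiating cells and for Tpi1 in proliferating cells. With the block 6 members were higher in polysomes in each state, where 29.7% of genes passed in differentiating and 23.1% in proliferating cells. Of the genes that passed, 2268 were higher and 1047 lower in differentiating cells, and 1880 higher and 698 lower in proliferating cells. The 6 members were Hk1, Hk2, Tpi1, Pgam1, Pkm2 and Ldha in both, at 0.88, 1.32, 1.26, 0.85, 1.33 and 0.91 in differentiating cells and at 0.64, 1.22, 1.12, 0.88, 0.72 and 0.96 in proliferating cells. On proliferating membranes Hk1, Hk2 and Pkm2 had a value below 0 without the block when 1 library was left out, at -0.008, -0.046 and -0.24.

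The difference between the fractions was tested directly. Without the block 0 members passed in either state in edgeR or DESeq2, where 4.10% of genes passed edgeR in differentiating and 7.29% in proliferating cells. No member had an unadjusted edgeR p under 0.05 there, where 1737 genes in differentiating and 2294 in proliferating cells did. With the block Ldha had a lower polysome to monosome ratio on membranes than in cytosol in differentiating cells, at -1.32 ± 0.36 (18.7% of genes passed). In proliferating cells Ldha at -1.08, Pgam1 at -1.29 and Pkm2 at -1.25 passed (28.5% of genes, adjusted p = 0.00434 to 0.021 by edgeR).

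**Figure D4:**
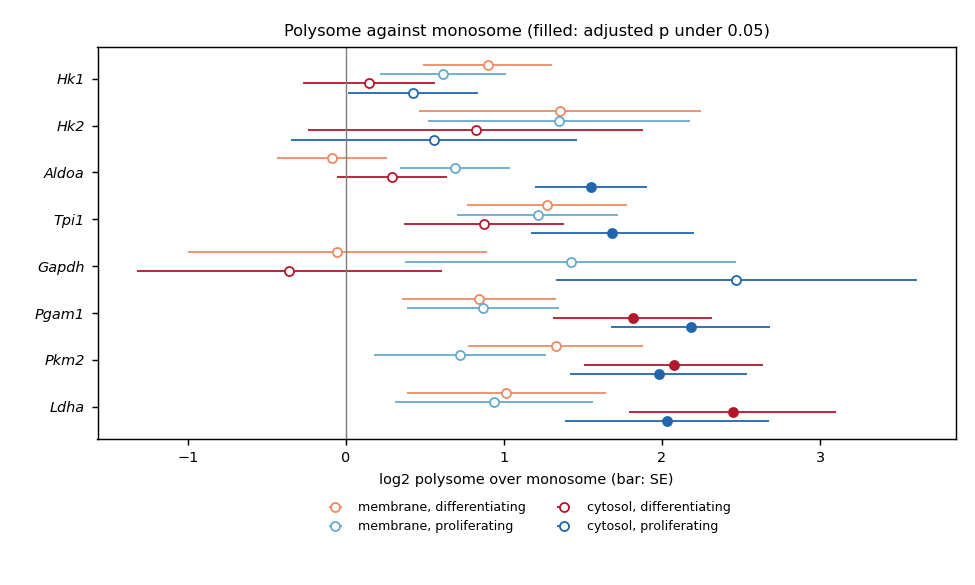
Log2 of polysome over monosome (x axis) with its SE for the 8 tested members in membrane and cytosol of differentiating and proliferating cells; filled points passed at an adjusted p of 0.05. Pgam1, Pkm2 and Ldha pass in the cytosol of both states at 1.81 to 2.45.

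Over all 4 gradient parts, 3 of 8 members differed between differentiating and proliferating cells with libraries as units, where 35.5% of genes did. Aldoa was higher in differentiating cells by 0.83 ± 0.18 (adjusted p = 0.00254 by edgeR), and Hk1 at -0.73 ± 0.20 (adjusted p = 0.0139) and Pkm2 at -1.08 ± 0.27 (adjusted p = 0.00807) were lower. Each state holds only 2 replicate sets of 4 libraries, the libraries of a set deviate together, and this fit counts them as independent. With the 4 parts averaged per set and 2 sets set against 2 in limma, an alternative chosen after seeing the data, 0 members passed, where 4.54% of genes did. Values were then 0.82 for Aldoa, -0.69 for Hk1 and -0.99 for Pkm2 (adjusted p = 0.163, 0.312 and 0.235), with unadjusted p-values under 0.05 for Aldoa and Pkm2. Tpi1 had 0.04 in edgeR and 0.01 in limma, and the Hk1 call in edgeR was lost without replicate 2 of the proliferating membrane monosomes or polysomes (adjusted p = 0.0608 and 0.0588). The members' median in edgeR was -0.34, against -0.09 over all genes.

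Part by part, Aldoa was higher in cytosol monosomes of differentiating cells by 1.59 ± 0.36 (adjusted p = 0.0232 by edgeR; 4.76% of genes), and Hk1 was lower at -1.47 ± 0.41 in membrane monosomes (adjusted p = 0.0422; 8.95% of genes). In cytosol polysomes (3.85% of genes) and in membrane polysomes (6.97% of genes) 0 members passed in edgeR or DESeq2, and Hk1 in membrane polysomes alone had an unadjusted p under 0.05. The Hk1 call in membrane monosomes was lost when any of 11 libraries was left out, and without replicate 2 of the proliferating membrane monosomes its value was -0.77. The Aldoa call was lost without replicate 1 of the differentiating or either replicate of the proliferating cytosol monosomes, at 1.32 to 1.83.

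Pgam2, the muscle phosphoglycerate mutase, had 11.8 to 249 CPM in differentiating libraries and 0 to 1.23 CPM in proliferating ones. It rose by 7.30 ± 0.89 (adjusted p = 8.08e-05 by edgeR), and by 5.94 ± 0.88 with 2 sets against 2 (adjusted p = 0.0176 by limma). Pfkm, the muscle phosphofructokinase, had 237 to 747 CPM in differentiating and 76.9 to 169 CPM in proliferating libraries. Its log2 difference was 1.67 in edgeR and 1.56 in limma (adjusted p = 0.0786). Of 10 other glycolytic enzymes tested, edgeR called 5 higher in differentiating cells (Pgam2, Pfkm, Ldhb, Eno2 and Gpi1) and 1 lower (Adpgk, at -1.35), and limma on the sets called Pgam2 alone. Eno3, the muscle enolase, had 0.09 ± 0.30 and did not pass. Gapdhs and Pgk2, also on that list, had no read in any library.

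Around the pathway, Pygm, the muscle glycogen phosphorylase, had 4.72 to 86.4 CPM in differentiating and 0 to 2.87 CPM in proliferating libraries. It rose by 6.30 ± 0.76 in edgeR and by 5.08 ± 0.77 in limma on the sets (adjusted p = 7.27e-05 and 0.0185), the only gene of 9 glycogen genes that was called higher. Pdk2, a kinase that inhibits pyruvate dehydrogenase, rose by 2.63 in edgeR and by 2.71 in limma (adjusted p = 4.3e-05 and 0.026). Further calls of edgeR with libraries as units were not called by limma on the sets. These were Pygb (-0.60), Pdk1 (1.18), Pdk4 (-1.87), Pdk3 (-0.98), Pfkfb3 (-1.16) and the transporters Slc2a1 (-1.27) and Slc16a1 (-1.05). None of the 5 pyruvate dehydrogenase genes passed in edgeR, and the lowest adjusted p among them was 0.354.

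**Figure D5:**
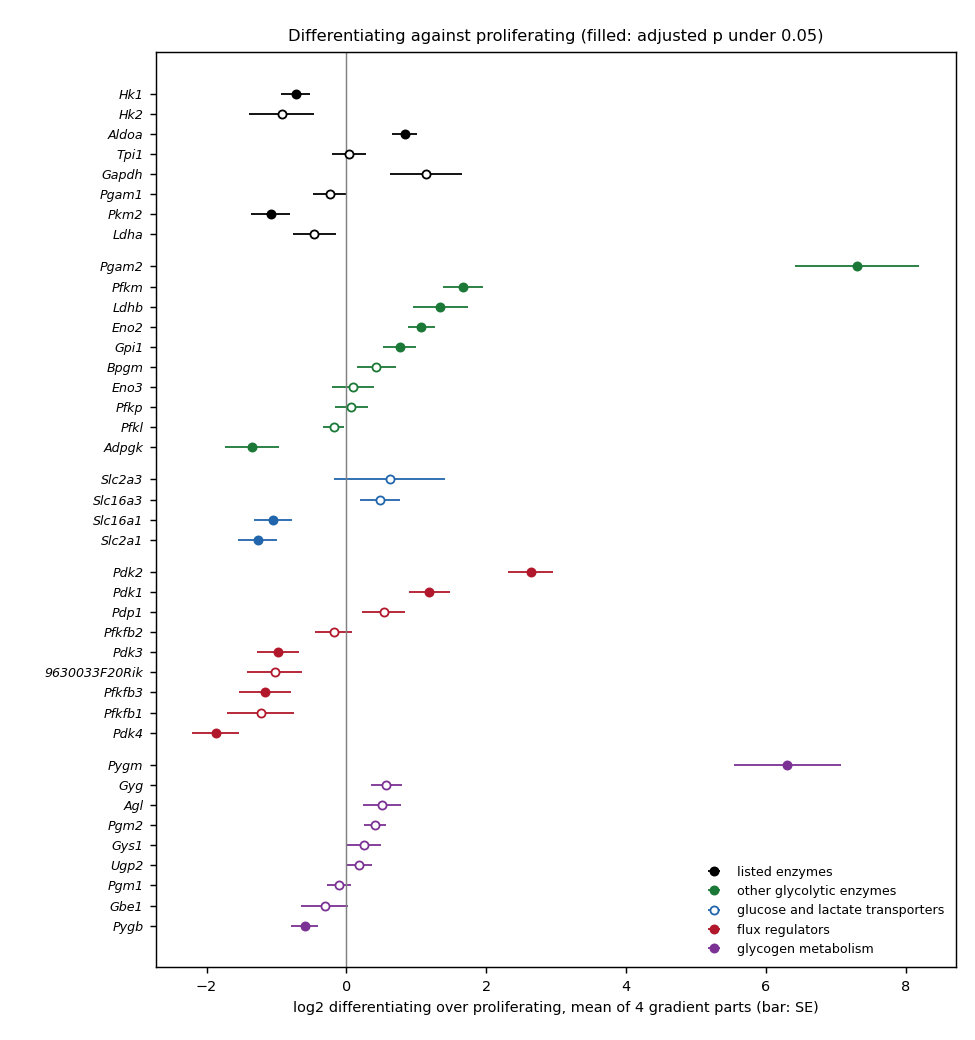
Log2 of differentiating over proliferating cells (x axis), as the mean of the 4 gradient parts, with its SE, for the listed enzymes and 4 lists of pathway genes; filled points passed at an adjusted p of 0.05 in edgeR with libraries as units. Pgam2 at 7.30 and Pygm at 6.30 stand to the right of the listed enzymes, which lie between -1.08 and 1.13.

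Hk1 was the only member with 2 sites that met the rule for site pairs, at positions 61731852 (proximal) and 61731600 (distal), 252 nt apart. The distal site took 0% to 21.7% of the pair's reads in differentiating and 3.04% to 20.0% in proliferating libraries. It did not pass in any of the 3 comparisons, in which 0.0220% of 4554 pairs were called for membrane against cytosol in differentiating cells, 0.527% for the same in proliferating cells and 1.54% for differentiating against proliferating cells. The share followed the replicate number: it was 7.14% to 21.7% in the 8 libraries of replicate 1 and 0% to 7.23% in the 8 of replicate 2. Levels did so too. Ldha was higher in replicate 1 in 8 of 8 groups (median log2 difference 0.98), and Hk1 was lower in replicate 1 in 8 of 8 (-0.41). Beyond the fits with the block, the part of the replicate number in the results was not tested.

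RNA-seq reads were counted in 3′ UTR parts of 11734 genes, so levels depend on the length counted and are set side by side only within a gene. Gapdh and Pkm2 were not analysed there. Aldoa had 297 reads per 1000000 (RPM) in membrane and 513 RPM in cytosol by RNA-seq, against 13224 and 22823 CPM in the whole-fraction 3′ end libraries. RNA-seq gave the higher number for Eno1, with 1555 and 1886 RPM by RNA-seq and 9.21 and 7.61 CPM by 3′ ends. It did so also for Pgam1, Hk2 and Hk1, whose RNA-seq values were 40.8, 6.46 and 1.72 times the 3′ end ones in membrane and 32.2, 12.9 and 5.15 times in cytosol. Pgk1 had 664 and 980 RPM by RNA-seq, with 3 reads in membrane and 0 in cytosol by 3′ ends.

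Of 7 members with a membrane to cytosol ratio in both assays, 6 had the same sign in both, all but Eno1, which had 0.28 by 3′ ends. RNA-seq log2 membrane over cytosol was 0.57 for Hk1 and 0.92 for Hk2, and -0.79 for Aldoa, -0.99 for Tpi1, -0.88 for Pgam1, -0.58 for Ldha, -0.56 for Pgk1 and -0.28 for Eno1, against a median of -0.19 over 8091 genes. The whole-fraction 3′ end libraries gave 2.15 for Hk1, 1.92 for Hk2, -0.79 for Aldoa, -1.23 for Tpi1, -1.22 for Pgam1, -0.82 for Ldha and -0.81 for Pkm2, against a median of -0.27 over 7690 genes. Each of these has 1 library per group and no replicate check. In the insoluble fraction Hk1 and Hk2 were again above cytosol, at 0.99 and 1.32, and the other 6 below it at -0.42 to -1.60, against a median of 0.31 over 8027 genes.

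Across the 16 gradient libraries the members did not share 1 profile. Ldha and Pgam1 were alike (Pearson's r = 0.956 of log2(CPM + 1)), as were Hk1 and Hk2 (0.859) and Aldoa and Gapdh (0.839), while Aldoa and Hk1 had -0.34. Among 2708 other genes with a mean of at least 50 CPM, the most alike were Arpc3 for Aldoa (0.878), Eri1 for Pkm2 (0.972), Acat2 for Ldha (0.949), Tpm3 for Tpi1 (0.913) and Magoh for Pgam1 (0.956). They were Aqp5 for Hk1 (0.957), Tln1 for Hk2 (0.923), Dhdds for Gapdh (0.807) and Mrpl10 for Pgk1 (0.517). Gapdh (at most 2.87 CPM) and Pgk1 (at most 1.04 CPM) had few reads in these libraries, so r values with them have little precision. For the mean profile of the members with at least 10 reads per library the highest values were those of Bag6 (0.973) and Zmat3 (0.969). These describe 16 libraries that share groups, replicate numbers and depth.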

How the data were processed

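Per the file headers, the authors deposited read counts per poly(A) site for 26 3′ end libraries and RNA-seq read counts in 3′ UTR parts for 3 libraries. Per the submitters' processing notes the build was mm9, with cutadapt, Bowtie2 and STAR 2.5.2; which step used which, and whether RNA-seq counting used strand, is not given in the sources used here. Counts were summed per symbol after leaving out 651 positions listed under several symbols; Eno1 levels come from the table that kept them. CPM scale reads to a common library total. Gene counts were filtered (filterByExpr), TMM-scaled and fitted in edgeR 4.0.16 (R 4.3.3) with its quasi-likelihood test, robust setting, Benjamini-Hochberg adjusted over all genes at 0.05, with 1 mean per gradient group; the SE is the fold change over the square root of F. Puromycin pairs had a term each. State was also tested on log2 CPM averaged per replicate set (limma 3.58.1, trend and robust settings). Site pairs needed a mean of 10 reads, 5% in the rarer site and at most 10 kb. The fits were tested on simulated data in which libraries varied independently. That check does not cover libraries of a replicate set that deviate together.

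Replicate numbers pair libraries within a state: deviations from group means correlated at 0.469 to 0.725 in all 12 same-state pairs of groups, against 0.099 to 0.255 between states, so that the block is the replicate number within each state. Replicates differed by more than counting noise. Named genes were all members, up to 4 per pathway list by p or level, and the most alike gene by Pearson's r; further list genes were named after their values were seen. Members and lists were chosen with earlier results of these data known. Alternatives were DESeq2 1.42.0, other filters and scalings, the block and leaving out libraries. Intervals and counts cover counting error only. Some list genes are not reported here.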

Additional observations from a re-analysis of the deposited data

Results flagged for a closer look

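Effects in one setting differed from those in another for 4 genes by the interaction terms of edgeR with the replicate number as a block, and none passed without it. The membrane to cytosol ratio of Hk1 was lower in differentiating than in proliferating cells by a log2 difference of -1.15. The polysome to monosome ratio was lower on membranes than in cytosol for Ldha at -1.32 in differentiating cells, and for Ldha at -1.08, Pgam1 at -1.29 and Pkm2 at -1.25 in proliferating cells. Groups of 2 libraries are too small to single out a library.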

How the results depend on the processing

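With the replicate block, which pairs libraries within a state, more members passed. For membrane against cytosol 4 passed in each state (43.4% of genes in differentiating and 56.1% in proliferating cells). For its difference between states 1 passed (4.60% of genes). For polysomes against monosomes on membranes 6 passed in each state (29.7% and 23.1% of genes). For its difference between fractions 1 passed in differentiating cells (18.7% of genes) and 3 in proliferating cells (28.5%). In differentiating against proliferating cells the block gave 7 over all parts, 4 in membrane monosomes, 3 in membrane polysomes, 2 in cytosol monosomes and 1 in cytosol polysomes, but state lies between the blocks, so that this fit leaves out the spread between replicate sets and its p-values for state are too small. With 2 sets against 2, chosen after seeing the data, 0 passed over all parts. The block changed no other count by more than 1.5 times. Fitting only the groups compared left 0 members in cytosol monosomes and 0 in membrane monosomes, and 1 for polysomes against monosomes in differentiating cytosol. In membrane monosomes the count was 2 with DESeq2 size factors, 3 with the DESeq2 test and 0 with no filter. For membrane against cytosol it was 1 in differentiating cells under each of these 3, and in proliferating cells 3 with the DESeq2 test and 2 with no filter. The exposure split gave 2. Where no share of all genes stands beside a count in this section, it is not given here, so that count has no background. The cause of these moves was not tested.

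With 1 library or exposure left out, the counts were 0 to 1 in cytosol monosomes, 2 to 5 over all parts, 0 to 1 in membrane monosomes, 0 to 1 and 1 to 2 for membrane against cytosol in differentiating and proliferating cells, 0 in the puromycin series, 0 to 1 for its ratio per 30 min (Hk1), and 0 to 3 and 1 to 5 for polysomes against monosomes in differentiating and proliferating cytosol. Of log2 fold changes called without the block, with it or in the exposure split, some reversed. Pkm2 did so between states in membrane polysomes (-1.41 to 0.019, the upper end without proliferating replicate 2). Ldha did so between fractions of differentiating cells (-1.04 to 0.096, the upper end without cytosol polysome replicate 1). Between polysomes and monosomes of proliferating membranes Hk1 (-0.008 to 1.16), Hk2 (-0.046 to 2.10) and Pkm2 (-0.24 to 1.52) did so. There the lowest values came without monosome replicate 1 for Hk1 and polysome replicate 2 for Hk2 and Pkm2. Pkm2 had -0.02 without monosome replicate 1. The Hk1 site ratio, called in no fit, reversed too. For membrane against cytosol in differentiating cells it was -0.41, and 2.84 without cytosol monosome replicate 1. Between states it was 0.04, and -1.64 without differentiating membrane monosome replicate 1. None of these was past the threshold with all libraries in the fit without the block.

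Scaling by DESeq2 size factors moved the median of all genes for membrane against cytosol in proliferating cells to -0.00, against 0.17 with TMM, and changed the split of called genes there to 2231 higher and 1815 lower, against 2597 and 1290; no reported log2 fold change of a member changed sign under this scaling. A pair rule of 20% in the rarer site left no Hk1 pair. Members with few reads (Gapdh, Pgk1) have little precision, and groups of 2 libraries limit all tests.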
